A study of Mus musculus with 8 samples.

Results

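Pericytes were the 260 nuclei of 61949 that the deposited annotation placed in its Pericyte class, in a data set of single nuclei from mouse brain. The class was chosen by that name alone and was the whole of deposited cluster 42. The study asked how defective myelin acts on amyloid disease, and sequenced nuclei from hemispheres of C57BL6/J mice aged 6 months, after the olfactory bulb and the cerebellum had been removed. The 8 libraries were 2 of WT mice, 2 of Cnp-/- mice, 2 of mice with the 5xFAD transgene on an intact Cnp background and 2 of Cnp-/- 5xFAD mice. Cnp encodes an enzyme of oligodendrocyte myelin and is lost from the whole body in Cnp-/- mice, which develop structural defects of myelin and axons. The 5xFAD transgene carries familial Alzheimer's disease mutations in human coding sequences under the Thy1 promoter, which drives it in neurons.

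Pericytes sit on the outside of capillaries, embedded in the basement membrane that they share with the endothelial cells lining the vessel. Endothelial cells recruit them by releasing the growth factor PDGF-B, which acts on the receptor Pdgfrb on the pericyte. Pericytes help to keep the blood-brain barrier closed, move solutes through a large set of transporters, set capillary tone and take up amyloid-beta. They belong, with arterial smooth muscle, to the mural cells.

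Pericytes numbered 20 and 21 nuclei in the WT libraries, 22 and 19 in Cnp-/-, 61 and 42 in 5xFAD, and 28 and 47 in Cnp-/- 5xFAD, always in the order of replicates 1 and 2. They were shallow: the median pericyte nucleus held 1434.5 UMIs (unique molecular identifiers, 1 for each captured RNA molecule) and 989.5 genes, against 6811 UMIs for the median nucleus of the series. Summed over the nuclei of a library, pericytes gave between 23002 and 103832 UMIs, of 68905044 to 82399061 UMIs per whole library. No cell barcode was shared between pericytes of 2 libraries, and 3 pericyte barcodes also occurred among the nuclei of another library. The deleted gene was checked in mature oligodendrocytes, where Cnp stood between 219 and 321 CPM (UMIs of a gene per 1000000 UMIs of the class) in the 4 libraries with an intact gene and between 23.1 and 32.8 CPM in the 4 Cnp-/- libraries. Pericytes themselves held 3 Cnp UMIs in all.

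The 3 genes that mark the class were found in most of its nuclei. Pdgfrb, the receptor named above, was detected in 228 of 260 pericyte nuclei (87.7%, 95% Wilson interval 83.1 to 91.1%). Rgs5, a regulator of G-protein signalling at chr1:169655501-169695813, was detected in 198 nuclei (76.2%, 70.6 to 80.9%). Atp13a5, a P-type transport ATPase at chr16:29231851-29378732, was detected in 249 nuclei (95.8%, 92.6 to 97.6%). Coordinates are those of the GENCODE vM21 annotation of GRCm38, and all intervals cover counting error only. The same 3 genes were found in 0.285%, 0.0535% and 0.499% of the 5612 mature oligodendrocytes, whose median depth of 1515 UMIs was close to that of pericytes. In neurons, at a median depth of 9105 UMIs, the shares were 2.62%, 0.157% and 3.24%.

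A pair of neighbouring genes of the class encode the parts of 1 channel, the vascular ATP-sensitive potassium channel that couples the metabolic state of a cell to its membrane potential. Kcnj8 encodes the pore and Abcc9 the sulfonylurea receptor, and the annotation places them 16.2 kb apart on the minus strand of chromosome 6. Abcc9 was detected in 63.1% and Kcnj8 in 30.0% of pericyte nuclei, against 0.143% and 0.0356% of mature oligodendrocytes. The 250 bases before each RefSeq start are shown because both genes were high in the same class. They were taken from RefSeq on GRCm38.p6, at chr6:142571615-142571864 for Kcnj8 and chr6:142702275-142702524 for Abcc9, and are written 5′ to 3′ on the minus strand. The last 41 bases of the Abcc9 window lie in a GENCODE transcript that starts further upstream.
Kcnj8: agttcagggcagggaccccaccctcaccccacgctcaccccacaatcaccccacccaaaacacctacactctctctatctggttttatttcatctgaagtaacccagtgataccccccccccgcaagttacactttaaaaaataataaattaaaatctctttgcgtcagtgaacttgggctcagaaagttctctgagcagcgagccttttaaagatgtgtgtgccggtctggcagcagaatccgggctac
Abcc9: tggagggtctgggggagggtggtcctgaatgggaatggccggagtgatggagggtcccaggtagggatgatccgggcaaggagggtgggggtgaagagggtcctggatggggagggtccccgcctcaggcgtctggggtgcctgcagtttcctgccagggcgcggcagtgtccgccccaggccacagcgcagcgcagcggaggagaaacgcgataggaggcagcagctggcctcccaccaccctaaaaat
Neither window held any of 3 core motifs searched on both strands, GTGGGAA (RBPJ, the factor through which Notch signals), TGTTTAC (forkhead) or GGTGTGA (T-box), which occurred in 5.42%, 3.17% and 3.33% of the windows before all 32851 starts. Nothing about these factors follows from the absence of letters from a window.

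Against endothelial cells, the class with the next highest level of most of its genes, pericytes carried 14 of 20 genes of the pericyte list above every endothelial library in each of their own. Over all 4372 genes with at least 20 pericyte UMIs, 7.2% stood that way and 5.54% stood below. The clusters were made from these same counts, so the values describe the class and carry no test. Pdgfrb stood at 1285 and 1146 CPM in the WT libraries, 1433 and 1782 in Cnp-/-, 1329 and 1947 in 5xFAD, and 1511 and 1961 in Cnp-/- 5xFAD. Its mean was 1549 ± 311 CPM (SD, n = 8), 5.59 times the endothelial mean of 277 CPM, and no pericyte library overlapped an endothelial one. Atp13a5 stood at 4910 and 4692 CPM in WT, 7702 and 6521 in Cnp-/-, 5557 and 6509 in 5xFAD, and 4819 and 6846 in Cnp-/- 5xFAD, a mean of 5945 ± 1109 CPM (n = 8) and 7.01 times the endothelial mean.

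Rgs5 went the other way, although it is a standard pericyte marker. It stood at 1032 and 1333 CPM in WT pericytes, 860 and 1609 in Cnp-/-, 1175 and 1293 in 5xFAD, and 1021 and 1192 in Cnp-/- 5xFAD. The endothelial class held 2397 CPM on average, from 2226 to 2828, and every pericyte library lay below every endothelial one. The same order held against endothelial cluster 26, at 1930 CPM, as it did for 6.36% of those 4372 genes. Of the 20 genes 18 stood in every pericyte library above every cluster 26 library, against 7.87% of the 4372 genes. Beside Rgs5 the exception was Foxf2, a forkhead transcription factor, with 11 UMIs in pericytes (27.3 CPM over the pooled class) and 89.9 CPM in cluster 26.

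**Figure D1:**
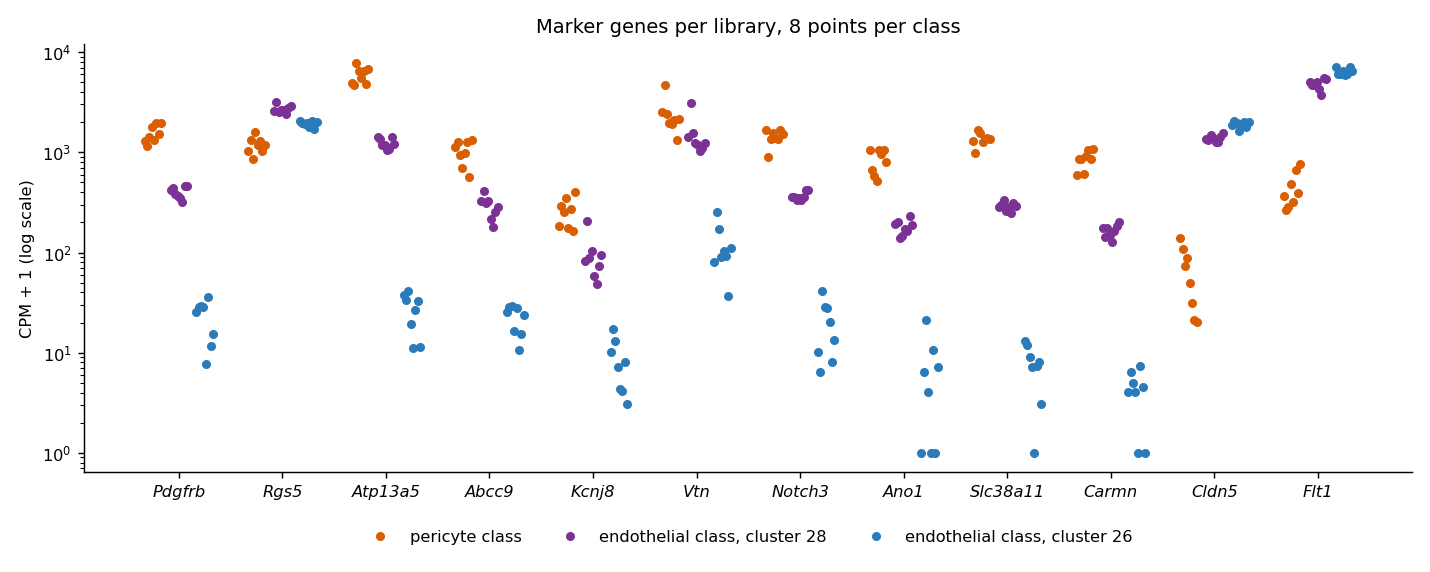
CPM plus 1 on a log axis for 12 genes, with 8 points per class, 1 for each library, in pericytes, endothelial cluster 28 and endothelial cluster 26. Pdgfrb, Atp13a5 and Carmn are high in pericytes, intermediate in cluster 28 and low in cluster 26, Rgs5 is lower in pericytes than in either endothelial cluster, and Cldn5 and Flt1 run the opposite way to the pericyte genes.

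The endothelial class was itself of 2 main kinds. Cluster 26 (854 nuclei, median 2228 UMIs) held a median of 1 UMI from the pericyte list, counted without Rgs5, and 54.5 UMIs from the endothelial list. Cluster 28 (743 nuclei, median 5955 UMIs) held 35 and 116, and 733 of its nuclei (98.7%) had at least 3 UMIs from both lists. Among pericytes the medians were 26 and 1, and 56 nuclei (21.5%) had at least 3 UMIs from both lists. The 15 pericyte genes that were at least 10-fold above cluster 26 stood in cluster 28 at a median of 29.0% of their pericyte level (18.3 to 61.4%), and 17 endothelial genes stood at 73.1% of their level in cluster 26 (59.9 to 79.9%). The other 5 pericyte genes stood in cluster 28 at 33.8% (Ecm2), 69.9% (Higd1b), 79.4% (Ndufa4l2), 228% (Rgs5) and 276% (Foxf2) of their pericyte level. The sources used here do not give how doublets were treated in these data, and whether cluster 28 holds joined pairs of a pericyte and an endothelial nucleus was not tested. Ratios to the endothelial class depend on it: mean Pdgfrb was 71.1-fold and Atp13a5 231-fold above cluster 26, against 5.59-fold and 7.01-fold above the whole class.

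**Figure D2:**
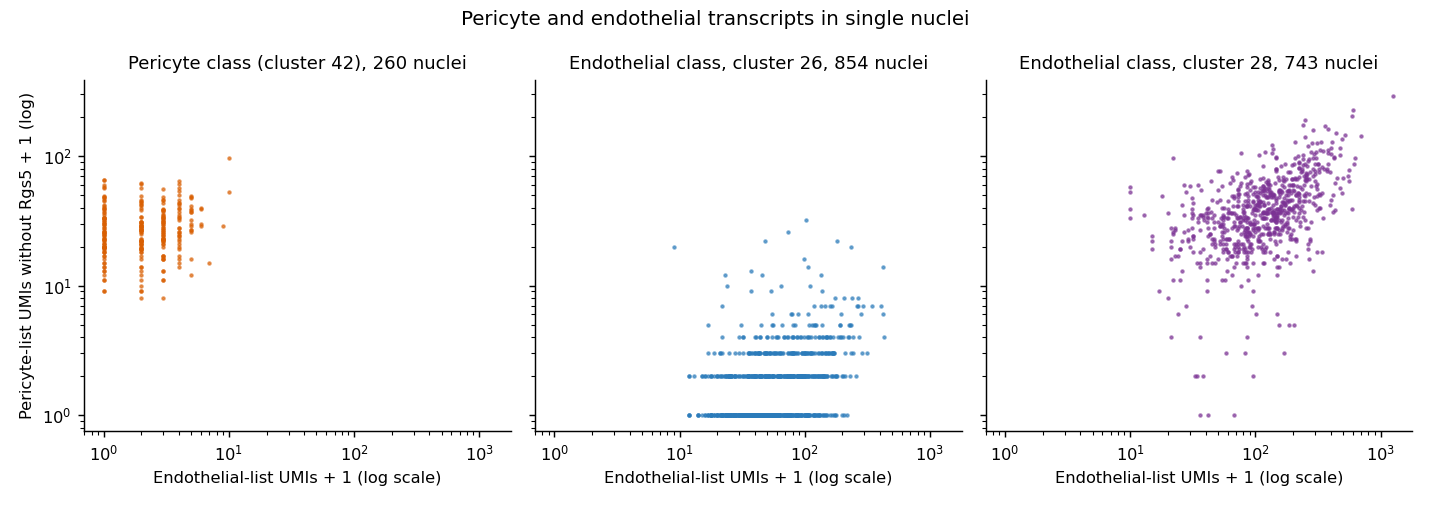
UMIs from the pericyte list without Rgs5 against UMIs from the endothelial list, each plus 1 on log axes, with 1 point per nucleus in the pericyte class (260 nuclei), endothelial cluster 26 (854) and endothelial cluster 28 (743). Pericytes and cluster 26 lie along opposite axes, while cluster 28 is high on both, with 98.7% of its nuclei at 3 or more UMIs from each list.

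Genes were ranked by the ratio of pericytes over every other class. Of 4266 genes with at least 20 pericyte UMIs in total and a UMI in at least 6 libraries, 1229 had their highest mean CPM in pericytes, and 254 were at least 2-fold above every other class. For all of the 20 genes with the largest ratios the next class was the endothelial one. Protein-coding members of those 20 were Kcnj12, an inward rectifier potassium channel (107 ± 46.2 CPM, 8.39-fold over endothelial cells), Tnxb, the matrix glycoprotein tenascin X (268 ± 124 CPM, 8.04-fold), and Dcdc2a (362 ± 110 CPM, 7.78-fold). They also included Zic4, a zinc-finger transcription factor (427 ± 164 CPM, 7.22-fold), Col8a1, a short-chain collagen (201 ± 130 CPM, 7.11-fold), Slc16a12, a monocarboxylate transporter (680 ± 222 CPM, 7.06-fold), and Sntb1, a syntrophin that anchors membrane proteins to the dystrophin complex (1093 ± 495 CPM, 7.04-fold). All SDs are over 8 libraries.

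Other transcripts, most of them annotated as non-coding, filled the remaining places. Carmn, which hosts the miR-143 and miR-145 cluster of mural cells, stood at 853 ± 177 CPM (n = 8), 7.68-fold over endothelial cells and 268-fold over cluster 26. Morrbid, known as a regulator of myeloid cell survival, stood at 1032 ± 171 CPM, 7.30-fold over endothelial cells. A630012P03Rik and Gm30624 led the list at 9.29-fold each, the first from 24 UMIs in all and the second from 115. The others were 4933431K23Rik, Gm16064, Gm13536, Gm30667, Gm28258, Gm49959, Gm36823, Gm30075 and Gm20139, between 7.01-fold and 8.86-fold, of which Gm16064 and Gm49959 rested on 20 UMIs each. Against endothelial cells alone, and among those 4372 genes, Ptpn22, a tyrosine phosphatase best known from lymphocytes, had the largest ratio (156 ± 71.0 CPM, 10.3-fold). Gipr, the receptor for the gut hormone GIP, was 8.74-fold higher and lay between 68.8 and 115 CPM in all 8 libraries. Myom1, a sarcomere protein, was 8.65-fold higher but came from 10 nuclei.

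Among the 4372 genes with at least 20 pericyte UMIs, the 10 lowest ratios to endothelial cells belonged to Bsg, Cldn5, Spock2, Slc6a6, Cxcl12, Tmtc2, Kitl, Pltp, St3gal6 and Abcg2. Bsg, the glycoprotein basigin that carries monocarboxylate transporters to the membrane, stood at 120 ± 79.6 CPM in pericytes and 3820 CPM in endothelial cells. Cldn5, the claudin of the tight junction, stood at 65.1 ± 43.3 and 1488 CPM. Cxcl12, a chemokine, stood at 99.3 ± 45.0 and 1493 CPM, and every pericyte library was below every endothelial one for each of these 3 genes.

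Pericytes carried the mural receptors of vessel signalling. Of 30 genes of the list, 16 had at least 20 pericyte UMIs, 5 stood above every endothelial library (Pdgfrb, Angpt1, Notch3, S1pr3 and Ednra) and 3 below (Tgfb2, Tgfbr2 and Eng). Of the 4372 genes with at least 20 pericyte UMIs, 7.2% stood above and 5.54% below. Pdgfrb and Notch3 are also on the pericyte list. Notch3, the mural Notch receptor, stood at 1430 ± 243 CPM (n = 8) against 254 CPM in endothelial cells, 5.64-fold higher. Ednra, the endothelin receptor of mural cells, was 6.39-fold higher (381 ± 106 CPM), and S1pr3, a sphingosine-1-phosphate receptor, 4.01-fold higher (159 ± 31.4 CPM). Angpt1, the ligand that mural cells send to the endothelial receptor Tek, was 6.23-fold higher at 101 ± 66.5 CPM, but astrocytes were the next class. Pdgfb and Tek, the endothelial partners, had 12 and 6 pericyte UMIs in all libraries together, against means of 365 and 511 CPM in endothelial cells. The Notch target genes Hey2 and Heyl were 5.08-fold and 4.31-fold above the endothelial mean, although their libraries overlapped. Other Notch targets were not higher in this way. Hes1 lay between 26.7 and 192 CPM in pericytes and between 65.7 and 188 CPM in the larger of the main endothelial clusters. Hey1 had at most 1 UMI in the pericytes of any library.

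Among the 6 functional lists, channels and transporters held the largest share of genes above endothelial cells, 13 of the 22 listed and of the 17 with at least 20 UMIs, against the 7.2% over all genes. Abcc9 stood at 1124 and 1280 CPM in WT pericytes, 931 and 696 in Cnp-/-, 973 and 1262 in 5xFAD, and 572 and 1327 in Cnp-/- 5xFAD. Kcnj8 stood at 184 and 293 CPM in WT, 251 and 348 in Cnp-/-, 173 and 274 in 5xFAD, and 163 and 404 in Cnp-/- 5xFAD. Both parts of the channel were thus found in all 8 libraries, with means 5.02-fold and 3.96-fold above the endothelial ones, and the genotypes overlapped. The solute carriers Slc38a11 (6.89-fold, 1359 ± 209 CPM) and Slc6a20a, a transporter of proline and other imino acids (6.27-fold, 1507 ± 233 CPM), were among the 13. So were Slc19a1, the reduced folate carrier (4.41-fold), Slc30a10, a manganese exporter (5.47-fold), and Slc12a2, the sodium-potassium-chloride cotransporter (3.84-fold).

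The same list held the calcium path to contraction. Ano1, a calcium-activated chloride channel, stood at 835 ± 224 CPM (n = 8), 6.80-fold over endothelial cells. Cacna1c, the L-type calcium channel, was 4.98-fold and the calcium release channels Itpr1 and Itpr2 were 2.51-fold and 2.62-fold higher. Only Slc22a8, an organic anion transporter, stood below every endothelial library (199 ± 48.0 against 300 CPM).

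Of 25 contractile and cytoskeletal genes, 22 had at least 20 UMIs. Of these, 8 stood above every endothelial library and 3 below, against 7.2% and 5.54% of the 4372 genes. The 8 were the light chain kinase Mylk (3.48-fold), the actin-binding protein Cald1 (4.20-fold), the GTPase-activating protein Dlc1 (5.33-fold), Rgs4 (3.20-fold) and the nitric oxide pathway from its receptor subunits Gucy1a1 (3.59-fold) and Gucy1b1 (4.85-fold) to the kinase Prkg1 (2.73-fold) and the phosphodiesterase Pde5a (3.57-fold). The 3 below were Actb, Vim and Rgs5. Pericytes and smooth muscle share much of this set, so the defining smooth muscle genes were read separately. Of the 12 on that list only Mylk was above every endothelial library, Cnn1 was at 0, and Acta2, Myh11 and Tagln together gave no UMI in 237 of the 260 nuclei.

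Smooth muscle transcripts were concentrated in a few nuclei. Of the 260 nuclei 12 had at least 2 UMIs of Acta2, Myh11 and Tagln, and 4 of them held 57, 22, 11 and 10 such UMIs. Those 4 nuclei came from 5xFAD replicate 1 (2 nuclei), 5xFAD replicate 2 and Cnp-/- 5xFAD replicate 1, and had no UMI of Atp13a5, Rgs5, Abcc9, Kcnj8 or Vtn. Of them 2 held Pdgfrb, with 1 and 3 UMIs, and pooled over the 4 nuclei Pdgfrb and Notch3 stood at 453 CPM each, against 1587 and 1439 CPM in the 248 nuclei with under 2 smooth muscle UMIs.

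Among basement membrane genes the chains differed. Of 24 genes, 15 had at least 20 UMIs, 7 stood above every endothelial library (Col4a4, Lama2, Lama4, Lamc1, Lamc3, Nid1 and Itga1) and 2 below (Sparc and Timp3). Over the 4372 genes the shares were 7.2% above and 5.54% below. Lama2, the laminin alpha chain of mural and astrocyte basement membranes, stood at 1070 ± 225 CPM (n = 8), 4.72-fold above endothelial cells. Col4a4 was 6.12-fold and Lamc3 4.16-fold higher, while the main collagen IV chains Col4a1 (147 ± 80.2 against 272 CPM) and Col4a2 (131 ± 77.2 against 198 CPM) had lower means in pericytes. The laminin chain Lama5 and fibronectin, Fn1, gave 2 and 16 UMIs in pericytes.

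Few genes of amyloid handling and of inflammation were measurable. Of 15 amyloid genes 7 had at least 20 UMIs, and Lrp1, the receptor through which mural cells take up amyloid-beta, was 2.46-fold above endothelial cells (195 ± 39.8 CPM). App was lower, at 422 ± 140 against 1114 CPM, and Apoe, the lipid carrier, had a mean of 403 ± 163 against 817 CPM. Of 23 inflammation and stress genes 6 had at least 20 UMIs. None of these stood above every endothelial library and Cxcl12 stood below, against 7.2% and 5.54% of the 4372 genes. For Icam1, Vcam1 and Il33, 2, 2 and 3 UMIs over all libraries do not allow a statement.

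Transcripts of other cell types differed between libraries. Of 21 fibroblast genes 16 had a UMI and 5 had at least 20, and their sum lay between 1216 and 2217 CPM, lowest in WT replicate 1 and highest in Cnp-/- replicate 2. Cped1 and Tbx15, of those 5, were above every endothelial library, against 7.2% of the 4372 genes with at least 20 UMIs. Col1a1, Lum, Slc47a1, Aldh1a2 and Slc22a6 were at 0. The 9 neuron genes summed to 1078 and 3626 CPM in WT pericytes, 0 and 130 in Cnp-/-, 135 and 213 in 5xFAD, and 1184 and 57.7 in Cnp-/- 5xFAD, with Slc17a7 at 0 throughout. In 16 nuclei (6.15%) at least 3 neuron UMIs were found, of which 3 and 4 were from WT, 0 and 0 from Cnp-/-, 2 and 1 from 5xFAD, and 6 and 0 from Cnp-/- 5xFAD. These 16 nuclei had a median of 2371.5 UMIs, against 1381.5 in the rest. Summed astrocyte genes lay between 179 and 1136 CPM, oligodendrocyte genes between 0 and 143 CPM and microglia genes between 81.7 and 206 CPM.

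Pericytes made up a larger share of nuclei in libraries with the 5xFAD transgene. They were 0.244% (95% Wilson interval 0.158 to 0.376%) and 0.309% (0.202 to 0.472%) of nuclei in WT, and 0.275% (0.181 to 0.415%) and 0.215% (0.138 to 0.336%) in Cnp-/-. In 5xFAD they were 0.820% (0.639 to 1.05%) and 0.581% (0.430 to 0.785%), and in Cnp-/- 5xFAD 0.401% (0.277 to 0.578%) and 0.556% (0.419 to 0.739%). All 4 libraries with the transgene lay above all 4 without it, 0.590 ± 0.173% against 0.261 ± 0.0402% (SD, n = 4 each), 2.26-fold and 0.329 percentage points higher. The two-sided exact permutation test gave p = 0.0286, the smallest value that 4 against 4 libraries allow, and 0.114 after Benjamini-Hochberg adjustment over the 4 share comparisons. The difference thus did not pass the adjusted threshold.

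The Cnp-/- libraries did not separate from the others. Their pericyte share was 0.362 ± 0.151% against 0.488 ± 0.265% (n = 4 each, exact permutation p = 0.457, adjusted 0.457). By genotype the means were 0.276 ± 0.0461% in WT, 0.245 ± 0.0419% in Cnp-/-, 0.701 ± 0.169% in 5xFAD and 0.478 ± 0.110% in Cnp-/- 5xFAD, and 2 libraries against 2 cannot give an exact p below 0.333. The labels do not tie libraries to animals. The replication note of the study says that a pair of animals was pooled per replicate for single-cell work. The methods state such pooling only for another data set of the study, so it is not settled for these libraries. The p-values measure the spread between libraries.

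A share depends on what it is a share of. Of pericytes and endothelial cells together, pericytes were 9.09% and 15.0% in WT, 10.0% and 6.38% in Cnp-/-, 24.1% and 17.0% in 5xFAD, and 13.1% and 14.03% in Cnp-/- 5xFAD. Libraries with and without the 5xFAD transgene overlapped here, at 17.1 ± 4.99% against 10.1 ± 3.60% (n = 4 each, exact permutation p = 0.0857, adjusted 0.171). For the Cnp-/- background the values were 10.9 ± 3.46% against 16.3 ± 6.20% (n = 4 each, exact permutation p = 0.171, adjusted 0.229).

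The share also depends on where cluster 28 is counted. Libraries without the transgene held 82 pericytes and 378 cluster 28 nuclei of 31848, and those with it 178 and 365 of 30101. For every 100 nuclei of cluster 28 there were 25.0 and 38.9 pericytes in WT, 22.7 and 12.9 in Cnp-/-, 81.3 and 48.8 in 5xFAD, and 30.1 and 42.3 in Cnp-/- 5xFAD. Pericytes and cluster 28 together made up 1.22% and 1.10% of all nuclei in WT, 1.49% and 1.88% in Cnp-/-, 1.83% and 1.77% in 5xFAD, and 1.73% and 1.87% in Cnp-/- 5xFAD. Counted so, the 5xFAD difference was 0.379 points of a larger share (exact permutation p = 0.143), and the libraries overlapped. Of vascular nuclei, pericytes and cluster 28 together were 52.3 ± 3.95% with the transgene and 52.2 ± 4.59% without it (n = 4 each), a difference of 0.115 points (exact permutation p = 0.971) in place of 6.94 points for pericytes alone. For the Cnp-/- background the difference changed sign, from -0.127 to 0.262 points of all nuclei and from -5.43 to 2.22 points of vascular nuclei.

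**Figure D3:**
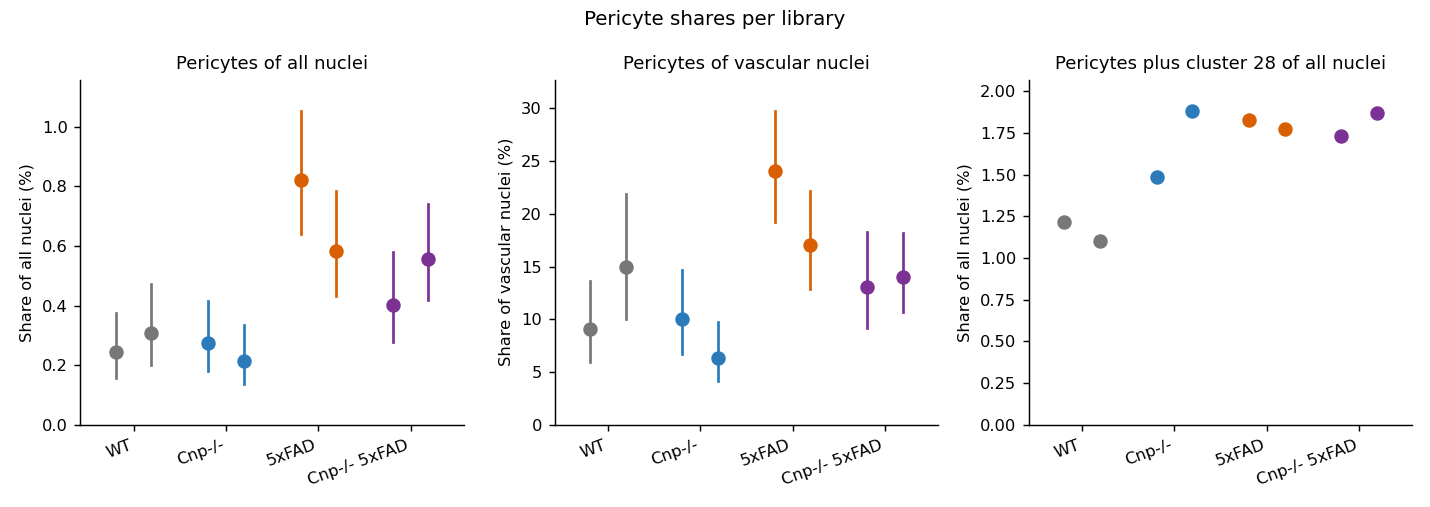
Share of pericytes per library among all nuclei and among vascular nuclei, with 95% Wilson intervals as bars, and the share of pericytes plus endothelial cluster 28 among all nuclei, in percent, grouped by genotype. In the first panel the 4 libraries with the 5xFAD transgene (0.401 to 0.820%) lie above the other 4 (0.215 to 0.309%), and in the other panels the groups overlap.

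Within pericytes, no gene passed the test for any genotype effect. Of 1253 genes with enough UMIs, edgeR's quasi-likelihood test on UMIs summed per library called 0 genes for the 5xFAD effect (0% of those tested), 0 for the Cnp effect and 0 for the interaction at a Benjamini-Hochberg adjusted p under 0.05. DESeq2 also called 0 in each. At an unadjusted p under 0.05 edgeR gave 53, 84 and 85 genes and DESeq2 18, 29 and 24. The median standard error of a log2 fold change was 0.37 for both main effects, which sets the size of change that was detectable at this depth.

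None of the 3 markers was called for either effect. On the log2 scale, libraries with the 5xFAD transgene differed from those without by 0.20 ± 0.20 (SE) for Pdgfrb, -0.10 ± 0.22 for Rgs5 and -0.05 ± 0.16 for Atp13a5 (edgeR adjusted p of 0.96 to 0.996). The Cnp effects were 0.22 ± 0.20, -0.08 ± 0.22 and 0.23 ± 0.16 (edgeR adjusted p of 0.86 to 0.97). Of the 16 pericyte genes tested none was called in either comparison, and their median log2 fold changes were -0.03 for 5xFAD, with a median of 0.02 over all genes, and 0.01 for Cnp, with a median of -0.01.

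Vtn was the 1 gene of that list with an unadjusted p under 0.05 in both comparisons. It encodes vitronectin, an adhesion protein that pericytes supply to the basement membrane. It stood at 2547 and 4719 CPM in WT, 2436 and 1956 in Cnp-/-, 1926 and 2114 in 5xFAD, and 1327 and 2154 in Cnp-/- 5xFAD. WT replicate 2 was far above the other libraries, and the groups overlapped. Endothelial cells of the same library also stood apart, at 2267 CPM against 731 to 1174 CPM in the other 7. The log2 differences were -0.66 ± 0.21 for 5xFAD (edgeR adjusted p = 0.949) and -0.49 ± 0.21 for Cnp (adjusted p = 0.712).

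**Figure D4:**
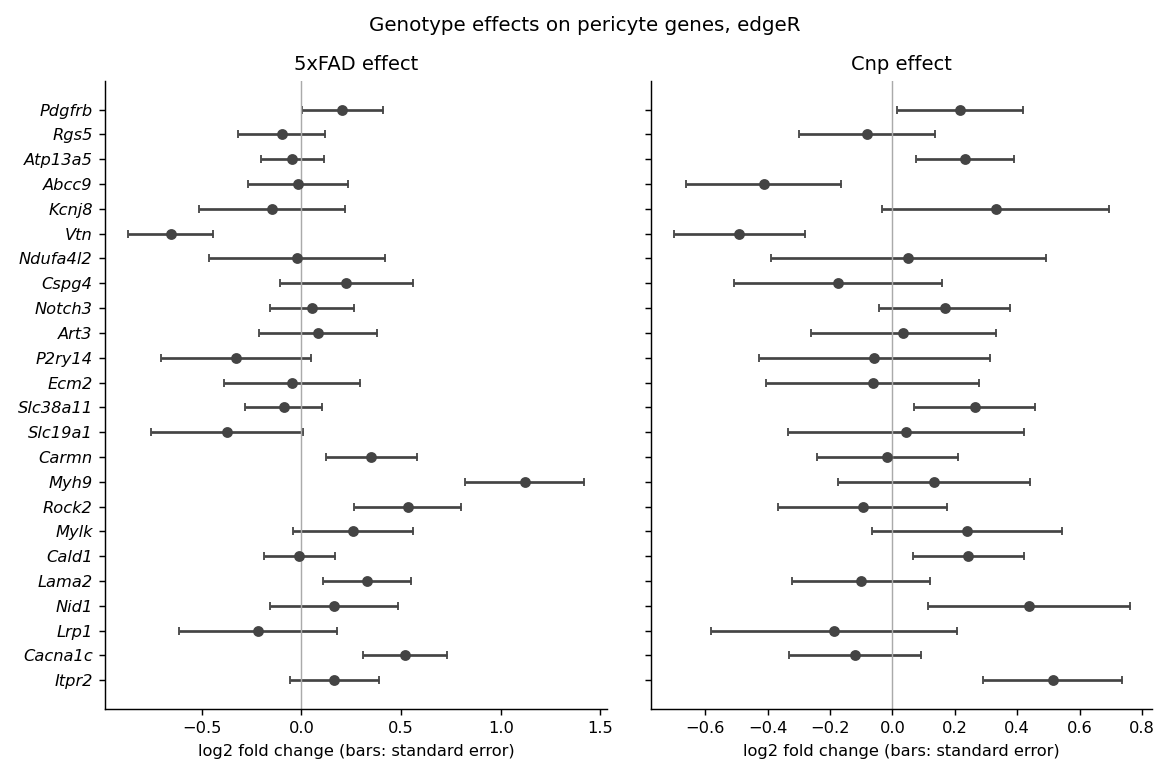
Log2 fold changes with standard errors from edgeR for 24 pericyte, contractile, matrix and channel genes, for libraries with against without the 5xFAD transgene and for Cnp-/- against intact Cnp. The pericyte markers lie on both sides of 0, and Myh9 (1.12 ± 0.30) is the highest point of the 5xFAD panel, although no gene was called.

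No gene of the functional groups was called for the 5xFAD effect. Of 15 contractile genes tested for the 5xFAD effect 9 had a positive value and the median was 0.06, and 2 of them, Myh9 and Rock2, did not overlap between groups, against 1.44% of all genes with every transgenic library above the others. Of 10 basement membrane genes 7 were positive with a median of 0.16, led by Sparc (0.67 ± 0.63), and of 15 channels and transporters 6 were positive with a median of -0.02. Of 5 vessel signalling genes 4 were positive with a median of 0.13. Of 5 amyloid genes 2 were positive with a median of -0.22, from App (-0.55 ± 0.32) to Ece1, an endothelin-converting enzyme that also cleaves amyloid-beta (0.51 ± 0.43).

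For the Cnp effect the medians were -0.10 for contractile, -0.09 for basement membrane, 0.04 for channel and transporter, 0.07 for vessel signalling and -0.19 for amyloid genes, with 0 called in each list. Slc38a11, an amino acid transporter, and Tpm1, a tropomyosin, were the 2 list members with every Cnp-/- library above the others after TMM scaling, against 2.15% of all genes. They were 1 of 15 channels and transporters tested and 1 of 15 contractile genes tested. Slc38a11 stood at 1285 and 986 CPM in WT, 1684 and 1565 in Cnp-/-, 1252 and 1369 in 5xFAD, and 1388 and 1346 in Cnp-/- 5xFAD. The single Cnp-/- mutants were highest. In these CPM, which are not TMM scaled, the groups overlapped, with 5xFAD replicate 2 above Cnp-/- 5xFAD replicate 2.

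Itpr2, a calcium release channel, had the lowest interaction among tested genes of the 6 functional lists. It stood at 390 and 507 CPM in WT, 1003 and 1087 in Cnp-/-, 790 and 897 in 5xFAD, and 694 and 827 in Cnp-/- 5xFAD. Both WT libraries were below all 6 mutant ones. The interaction was -1.30 ± 0.45 on the log2 scale and was not called (edgeR adjusted p = 0.536).

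Myh9 had the smallest unadjusted p among genes higher with the 5xFAD transgene. It encodes the heavy chain of non-muscle myosin IIA, a motor of cell tension, and lies at chr15:77760587-77842175. Pericytes held 229 and 320 CPM in WT, 179 and 435 in Cnp-/-, 636 and 578 in 5xFAD, and 735 and 654 in Cnp-/- 5xFAD. All 4 transgenic libraries were above the other 4, from 10, 12, 5 and 10 UMIs without the transgene and 66, 38, 36 and 34 with it. The log2 fold change was 1.12 ± 0.30 and was not called (edgeR adjusted p = 0.949). In endothelial cells of the same libraries Myh9 lay between 297 and 380 CPM, with no separation by transgene.

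Klf7, a zinc-finger transcription factor, followed the same order. It stood at 161 and 107 CPM in WT, 143 and 174 in Cnp-/-, 308 and 350 in 5xFAD, and 306 and 519 in Cnp-/- 5xFAD, from 19 UMIs without and 97 UMIs with the transgene. Its log2 fold change was 1.26 ± 0.36 (not called, edgeR adjusted p = 0.949), and endothelial cells lay between 317 and 420 CPM. Rock2, a kinase that promotes contraction, stood at 344 and 400 CPM in WT, 358 and 348 in Cnp-/-, 578 and 548 in 5xFAD, and 551 and 519 in Cnp-/- 5xFAD (0.53 ± 0.27, not called).

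The other genes at the top of these comparisons were also not called. For 5xFAD, Cdk12 (1.32), Cpsf6 (1.91) and Arhgap5 (1.20) had the next smallest unadjusted p among positive log2 fold changes, and Carmil1 (-0.74), Gm11713 (-1.14), Tmsb4x (-1.18) and Igsf8 (-0.83) stood beside Vtn among negative ones. For Cnp, Sos2 (1.33), Hnrnph1 (1.16), Ccnd3 (1.71), Wwox (0.89) and Smurf2 (1.28) were positive and Dmxl1 (-1.69) and Atad2b (-1.40) negative, with edgeR adjusted p of 0.276 or more. For the interaction, Ehbp1 (2.45), Auts2 (3.07), Ctdspl (-1.57), Ube2h (-2.13), Sos2 (-2.04) and Fam193a (-1.74) were among the genes with the smallest unadjusted p.

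The remaining top genes of the Cnp effect and of the interaction lay mostly in nuclei with neuron transcripts. Kcnd2, a potassium channel of neurons and the gene with the smallest adjusted p of the Cnp effect (0.0595), had 51 and 50 UMIs in WT, 0 and 0 in Cnp-/-, 2 and 11 in 5xFAD, and 3 and 0 in Cnp-/- 5xFAD. Of its 117 UMIs 116 (99.1%) lay in the 16 pericyte nuclei with at least 3 neuron UMIs. For the synaptic adhesion gene Nrxn3 all 90 UMIs, for Cadm2 106 of 113, and for the glutamate receptor Gria4 39 of 48 lay in those nuclei. None of these is among the 9 neuron genes that chose the nuclei. By contrast 17 of the 211 Myh9 UMIs and 12 of the 116 Klf7 UMIs did. Auts2, named above for the interaction, lay between, with 83 of its 172 UMIs (48.3%) in those nuclei.

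Whether a genotype effect was different in pericytes and in endothelial cells of the same libraries was tested directly, in 1 model with the library as a block. Of 10017 genes, 75 had a 5xFAD effect that differed between the classes (0.749%), 2 of them higher (0.02%) and 73 lower (0.729%) in pericytes, and 5 had a different Cnp effect (0.0499%), all lower, by edgeR's adjusted p. DESeq2 called 0 in both, and at an unadjusted p under 0.05 edgeR gave 705 and 454. Across all genes tested the median log2 difference was 0.20 for 5xFAD and -0.22 for Cnp, and -0.02 and -0.08 with DESeq2's size factors, so differences are read against those medians.

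The 2 higher genes were Myh9 and Klf7. The 5xFAD effect on Myh9 was 1.43 ± 0.37 higher in pericytes than in endothelial cells (edgeR adjusted p = 0.0196), and that on Klf7 was 1.67 ± 0.43 higher (adjusted p = 0.0204), with no overlap of the pericyte to endothelial ratio between the groups of 4 libraries, as for 1.07% of all genes in that direction. With DESeq2's size factors they were 1.20 (adjusted p = 0.0921) and 1.44 (adjusted p = 0.0795). Both calls were lost under DESeq2 (1.21 for Myh9 and 1.44 for Klf7), without the library block (1.44 and 1.69), against cluster 26 alone (1.20 and 1.49) and without the 16 nuclei with neuron transcripts (1.31 and 1.90), with the direction unchanged.

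**Figure D5:**
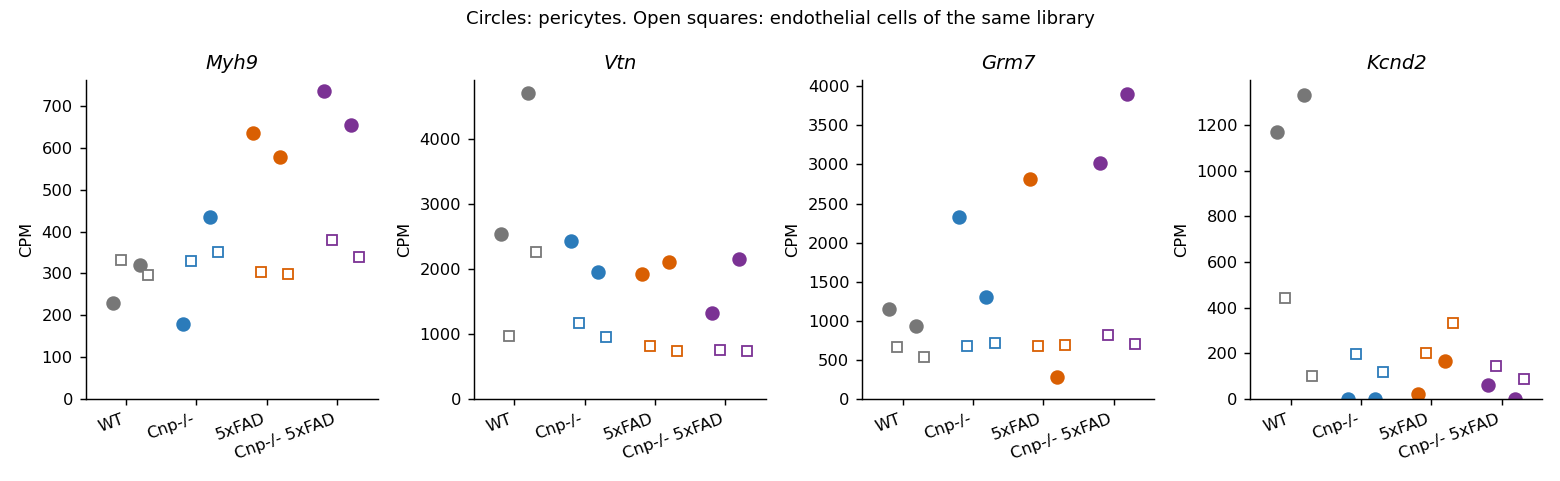
CPM of Myh9, Vtn, Grm7 and Kcnd2 in each library, with filled circles for pericytes and open squares for endothelial cells of the same library, coloured by genotype. Myh9 in pericytes is higher in the 4 libraries with the 5xFAD transgene (578 to 735 CPM) than in the others (179 to 435 CPM), while Kcnd2 is highest in the WT pericytes.

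The genes called lower held many neuronal ones. Of all 75 called genes 46 (61.3%) had their highest mean level in neurons, against 8.23% of genes tested. Among them were the synaptic vesicle gene Snap25, the neuronal splicing factor Rbfox3 and the glutamate receptor Grik2, with 21, 22 and 43 pericyte UMIs in all libraries, of which 21, 20 and 42 were in libraries without the transgene. All Grik2 UMIs lay in the 16 nuclei with neuron transcripts, which were themselves chosen on Snap25, Rbfox3 and the other neuron genes. The 5 genes with a different Cnp effect were Kcnd2, Kirrel3, Nrxn3, Negr1 and Rgs7, and 104 of the 105 Kirrel3 UMIs were in those nuclei, 82 of them in 1 nucleus. Without those 16 nuclei 0 genes were called for 5xFAD, and 2 for Cnp that were not among the 5. None of the 20 pericyte markers was called for 5xFAD, but all 20 had a positive difference, against 59.6% of all genes. Their median was 0.72 against 0.20 over all genes. Of the 20, 7 were higher at an unadjusted edgeR p under 0.05, against 358 of all 10017 genes. With DESeq2's size factors 19 of 20 were positive and 1 had such a p, with a median of 0.49 against -0.02. Against cluster 26 alone 18 of 20 were positive and 2 had such a p, with a median of 0.54 against 0.12. Within pericytes alone 6 of the 16 markers tested were positive and the median was -0.03. In cluster 28, part of the endothelial class, the pericyte genes stood at a median of 22.9% and 20.5% of their mean pericyte level in the 5xFAD libraries. The other transgenic libraries, Cnp-/- 5xFAD, stood at 29.3% and 29.9%, within the range of 27.5 to 39.8% in those without the transgene. The part of these levels in the difference was not tested.

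Of 24 contractile genes tested against endothelial cells 23 had a positive 5xFAD difference, against 59.6% of all genes, with a median of 0.60 against 0.20 over all genes, and Myh9 was the 1 called, against 0.749% of all genes. With DESeq2's size factors 22 of 24 were positive, the median was 0.37 against -0.02 and 0 were called, and against cluster 26 alone the median of 22 genes was 0.46 against 0.12 with 0 called. Within pericytes 9 of 15 were positive with a median of 0.06, and without the 12 nuclei with at least 2 smooth muscle UMIs 7 of 15 with a median of -0.0027. Acta2, Tagln, Myh11, Tpm2, Tpm4, Cnn2, Des, Vim and Flna had too few pericyte UMIs to be tested there. They are in the 24 tested against endothelial cells, so the counts cover different genes and no conclusion is drawn from the 23. Tagln, an actin-binding protein of smooth muscle, had 0 UMIs in all 4 libraries without the transgene and 12, 3, 1 and 0 in those with it. The 4 nuclei rich in Acta2, Myh11 and Tagln all came from transgenic libraries, which held 178 of the 260 pericyte nuclei. The part of these 4 nuclei in the differences from endothelial cells was not tested.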

How the data were processed

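Nuclei were purified from frozen tissue on an iodixanol gradient and sequenced with the 10x Genomics 3′ chemistry. The authors aligned the reads to mm10 with Cell Ranger 6.1.2, removed ambient transcripts with CellBender, filtered nuclei on detected genes and UMIs, dropped clusters of undefined identity and clustered the rest with Seurat. Whether intronic reads were counted and how doublets were treated in these data is not given in the sources used here. The deposited values are raw UMI counts per gene and nucleus, with a deposited table of cell type, cluster and total counts. The tables of microglia alone were not used here.

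UMIs were summed per library over the pericyte class. CPM are these sums per 1000000 UMIs of the class in that library, with the SD over libraries. Genotype effects were tested with edgeR 4.0.16 (filterByExpr, TMM, 1 mean per genotype, quasi-likelihood test, two-sided, Benjamini-Hochberg adjusted p under 0.05) in R 4.3.3. The 5xFAD and Cnp effects are means over both states of the other factor and share all 8 libraries. The difference from endothelial cells was tested in 1 model over 16 profiles with the library as a block. No library was left out for its depth, down to 19 pericyte nuclei. Shares were compared by exact permutation of libraries. DESeq2 1.42.0, other scaling, other filters, a replicate block, other sets of nuclei and each library left out in turn were the alternatives. The scripts were tested on simulated data.

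Named were Pdgfrb, Rgs5 and Atp13a5, list members that passed a test, the 10 called genes with the largest change whose groups did not overlap or, with under 10 calls, all of them and the 5 with the smallest unadjusted p in each direction, and the 20 and 10 genes with the most extreme ratios of mean CPM. Klf7, Grm7, Gpc5 and the list members described by value were chosen after their values were seen. Some genes that these rules name are not reported here. The lists covered markers of 9 cell types and 6 functions. The class, the lists and the rules were chosen with earlier results of these data known. Promoter windows and motifs are from RefSeq, and gene coordinates from GENCODE vM21. Of the identity genes looked up for the motif search, which were not all the genes ranked, 14 matched a promoter window. None of these 14 held a motif searched.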

Additional observations from a re-analysis of the deposited data

Results flagged for a closer look

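The summed level of the 9 neuron genes in the pericytes of Cnp-/- 5xFAD replicate 1, at 1184 CPM, stood far from the other 3 libraries with the transgene (57.7 to 213 CPM) and from the other 3 Cnp-/- libraries (0 to 130 CPM). These were 2 flags among 40 sets of 4 libraries examined, where chance alone flags about 1 set in 20.

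The 5xFAD effect differed between pericytes and endothelial cells for 75 genes and the Cnp effect for 5 by edgeR's adjusted p. For the Cnp effect the genes were Kcnd2 (117 pericyte UMIs in the 8 libraries), Kirrel3 (105), Nrxn3 (90), Negr1 (42) and Rgs7 (22), and between 0 and 3 of the UMIs of each were in Cnp-/- libraries. For the 5xFAD effect the genes named by the rule with 2 or fewer UMIs in transgenic libraries were Cdh18 (16 UMIs), Snap25 (21), Ctnna2 (18), Nol4 (12), Sh3gl2 (12), Caln1 (13), Lrrtm3 (9), Dscaml1 (11), Grik2 (43), Zfpm2 (15), Rbfox3 (22) and Lhfpl3 (14). No fold from the main fit is given for them. Syt1, a synaptic calcium sensor, had a log2 difference of -2.55 and Kcnip4 of -2.57, from 24 and 117 UMIs, and both are among the 9 genes on which nuclei with neuron transcripts were chosen. Both signs changed in another setting, to 1.71 for Syt1 without the library block and to 1.21 for Kcnip4 without WT replicate 2. Myh9 had a log2 difference of 1.43 and Klf7 of 1.67. Nuclei with neuron transcripts were uneven between libraries (3, 4, 0, 0, 2, 1, 6 and 0 in the order WT, Cnp-/-, 5xFAD and Cnp-/- 5xFAD), and no call of the 5xFAD comparison was made without them.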

How the results depend on the processing

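Directions of all share comparisons held in every setting run except where cluster 28 was counted with pericytes, which turned the Cnp difference to 0.262 points of all nuclei and to 2.22 points of vascular nuclei. For the 5xFAD share of all nuclei, the exact p passed 0.05 with replicate numbers as blocks (0.329 points, p = 0.0556, the smallest possible there), among nuclei other than neurons (0.721 points) and with cluster 28 (0.379 points). Leaving out 1 library gave 0.252 to 0.392 points, with an exact p of 0.0571 in each of the 4 fits without a library that lacks the transgene and 0.0286 in the other 4, and it gave -0.208 to -0.0162 for Cnp. Of vascular nuclei the ranges were 4.59 to 8.57 points for 5xFAD and -7.83 to -2.83 for Cnp, where the exact p was 0.0286 without WT replicate 1.

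Counts of called genes changed more. In pericytes, without a filter on low counts, 3 genes were called for 5xFAD, 9 for Cnp and 15 for the interaction, and with a replicate block 0, 9 and 6. Without the nuclei with smooth muscle UMIs 1 gene was called for the interaction. Leaving out 1 library gave 0 to 0 for 5xFAD, 0 to 23 for Cnp (23 without Cnp-/- 5xFAD replicate 1) and 0 to 28 for the interaction (28 without Cnp-/- 5xFAD replicate 2). Deviations of libraries with the same replicate number correlated between -0.018 and 0.100 over the 6 pairs of genotypes, so the numbers were not taken to pair libraries. Against endothelial cells, the Cnp count of 5 became 0 with DESeq2, 0 without the library block and 2 without nuclei with neuron UMIs, and 0 to 26 with 1 library left out. The 5xFAD count of 75 became 0 with DESeq2, without the library block, with cluster 26 only and without nuclei with neuron UMIs, 101 with DESeq2 size factors, and 10 to 124 with 1 library left out (10 without 5xFAD replicate 1, 36 without WT replicate 2, 35 without 5xFAD replicate 2, 124 without Cnp-/- 5xFAD replicate 1). Myh9 lost its call in 6 and Klf7 in 7 of the 8 fits without 1 library, at 1.25 to 1.55 and 1.502 to 1.82. Fitted values that changed sign were those of Rgs7 (0.44), Kirrel3 (4.69), Nrxn3 (1.01), Grik2 (0.000729), Rbfox3 (0.013) and Lhfpl3 (0.099) without nuclei with neuron UMIs, Grik2 (0.71) with cluster 26 only, Rbfox3 (0.21) and Syt1 (1.71) without the library block, Kcnip4 (1.21) without WT replicate 2 and Lhfpl3 (2.41) without WT replicate 1, in ranges of -5.51 to 1.21 and -9.30 to 2.41 over the fits without 1 library. Without nuclei with neuron UMIs, Kirrel3 kept 1 pericyte UMI and the other 5 genes 0, so those 6 values measure no change. The cause of the other changes was not tested.

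Depth limits the rest: 1253 of the 14731 genes with a UMI in pericytes were tested, 51 nuclei held under 1000 UMIs, and fits without 1 library take the spread of the remaining genotypes for the library left alone.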

Other observations

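Grm7, a metabotropic glutamate receptor, differed widely between the 5xFAD libraries. Pericytes held 1147 and 933 CPM in WT, 2329 and 1304 in Cnp-/-, 2812 and 274 in 5xFAD, and 3022 and 3904 in Cnp-/- 5xFAD. Its UMIs were spread over 12, 13, 11, 12, 54, 8, 25 and 44 nuclei in that order, and 63 of 841 lay in the 16 nuclei with neuron transcripts. Endothelial cells of the same libraries lay between 540 and 820 CPM, with cluster 26 at 104 to 225 CPM and cluster 28 at 706 to 1100 CPM. In 5xFAD Grm7 was found in 54 of 61 pericyte nuclei of replicate 1 and in 8 of 42 of replicate 2.

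Gpc5, a glypican that astrocytes express, gave 65 of its 86 pericyte UMIs in 5xFAD replicate 1, in 27 nuclei. The other libraries held 2 and 3 UMIs in WT, 2 and 2 in Cnp-/-, 1 in 5xFAD replicate 2, and 11 and 0 in Cnp-/- 5xFAD. The highest count in a single nucleus was 14. The endothelial class as a whole was also highest in 5xFAD replicate 1, at 419 CPM against 56.1 to 327 CPM in the other 7 libraries. Its 2 main clusters were not highest there. Cluster 26 held 254 CPM in that library and 381 CPM in Cnp-/- replicate 1. Cluster 28 held 138 CPM in that library and 233 CPM in WT replicate 1.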
